A study of Mus musculus with 24 samples.

Results

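Components of the cyclic AMP, protein kinase A (PKA) and CREB pathway were followed through 10 genes taken by name: the PKA subunits Prkaca and Prkar1a, the phosphodiesterases Pde4a, Pde4b and Pde4d, the transcription factors Creb1, Crem and Atf1, the coactivator Crebbp and the kinase Sik1. All probes whose platform symbol was 1 of these names were collected, 30 of the 45281 probes in the table, and the brightest detected probe stood for the gene, with the other probes beside it. Of the 10 genes, 9 passed the filter on dim probes, among 12226 genes tested. The exception was Atf1, whose only probe was above background on 2 of 24 arrays. Pde4a passed only through the static groups at 6 h, the ones in which its probe was above background on all 3 arrays.

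The arrays measured total RNA of cells from the aorta-gonad-mesonephros (AGM) of C57BL/6J mouse embryos at embryonic day 10.5, the region in which the first blood stem cells arise. The dissociated tissue was plated in channel slides, loose cells were washed off, and medium was then driven over the attached cells. There were 8 groups of 3 arrays each. At 36 h the groups were flow at 5 dyne per cm2 of wall shear stress (WSS) with indomethacin, WSS with vehicle, near-static flow of 0.0001 dyne per cm2 with indomethacin, and near-static flow with vehicle, and the same groups were taken at 6 h. Indomethacin, given at 10 uM, blocks the cyclooxygenases that make prostaglandins. Shared by all groups were the strain, stage, dissociation and medium, which held no added hydrocortisone. Each sample pooled 6 channels of identical treatment, so every value is an average over a mixture of AGM cell types. Nothing in the labels ties the 3 samples of a group to separate litters, cultures or days, and p-values here therefore set differences against a spread that may be technical.

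Cyclic AMP is made by adenylyl cyclases when receptors coupled to the G protein Gs are occupied, among them the prostaglandin E2 receptors EP2 and EP4. It binds the regulatory subunits of PKA and frees the catalytic subunits, which phosphorylate CREB family factors at cyclic AMP response elements. The coactivators CBP and p300 are then recruited, while PDE4 enzymes break cyclic AMP down and salt-inducible kinases hold back the CRTC coactivators of CREB. In the AGM, prostaglandin E2 acting through cyclic AMP is known to favour blood stem cell formation.

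The letters of the cyclic AMP response element, TGACGTCA, and its shorter forms TGACG and CGTCA were searched on both strands in RefSeq promoter windows of build GRCm38.p6 that run from 250 bases before to 50 bases after a transcription start. The full element lay in 588 of 32851 windows (1.79%), and a short form, which every full element also holds, in 6837 (20.8%). Windows were given for 8 of the 10 members, 19 windows in all. Of these, 2 held the full element and 7 held a short form. The 2 are overlapping windows of Prkar1a that hold the same element and the same short forms, so that site is counted in both. The 250 bases before the start are shown for 3 members whose probes changed with flow, in windows picked because they held a motif. Prkar1a had 6 windows, Prkaca 2 and Pde4b 4, and each gene also had at least 1 window without a motif. The 1 window of Crebbp, another member that changed with flow, held none. Shown are Prkar1a at chr11:109650699-109650948, Prkaca at chr8:83972728-83972977 and Pde4b at chr4:102421305-102421554, all on the plus strand and with the motif letters in capitals.
Prkar1a: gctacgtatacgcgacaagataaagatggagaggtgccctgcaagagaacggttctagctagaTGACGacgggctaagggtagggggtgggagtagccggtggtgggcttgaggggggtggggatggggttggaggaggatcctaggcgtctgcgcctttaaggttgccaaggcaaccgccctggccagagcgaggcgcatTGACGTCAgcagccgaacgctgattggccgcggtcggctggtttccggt
Prkaca: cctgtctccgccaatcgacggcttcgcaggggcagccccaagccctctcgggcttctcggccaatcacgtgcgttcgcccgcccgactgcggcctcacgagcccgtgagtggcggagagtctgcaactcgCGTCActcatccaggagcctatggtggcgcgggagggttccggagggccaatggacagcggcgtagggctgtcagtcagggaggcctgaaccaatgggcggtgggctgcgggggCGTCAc
Pde4b: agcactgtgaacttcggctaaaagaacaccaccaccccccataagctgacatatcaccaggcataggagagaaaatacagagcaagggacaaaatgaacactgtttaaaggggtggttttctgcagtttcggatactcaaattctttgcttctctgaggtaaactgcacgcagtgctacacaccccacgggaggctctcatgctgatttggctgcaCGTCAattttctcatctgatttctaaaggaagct
In the Prkar1a window the full element began 49 bases before the start, and a further TGACG began 187 bases before it. In Prkaca, CGTCA began 120 and 6 bases before the start, and in Pde4b 34 bases before it. These matches describe the letters of the windows and not bound sites, and the array probes do not tell which start a transcript used.

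Over the series 18681 to 22156 probes per array were above background, mean raw signals were 370 to 610.4, and correlations within groups ran from 0.98 to 0.993. Raw signal was not even: at 6 h its mean was 490.9 to 610.4 on WSS arrays and 370 to 454.7 on static arrays. At 36 h these overlapped, at 474.4 to 607.2 and 435.1 to 569.3. Static vehicle arrays had 20178 to 22156 probes above background at 6 h and 18681 to 19335 at 36 h. Values are log2 intensities after background correction and quantile normalization, a gene was called at an adjusted p under 0.05 by limma with Benjamini-Hochberg adjustment over the 12226 genes, and errors of fold changes are standard errors. Exact tests of 3 against 3 arrays cannot give a two-sided p below 0.1, which is why the model across all genes was used. When arrays were instead scaled to a common median over all probes, the median of all genes in WSS against static moved to 0.32 with indomethacin and 0.24 with vehicle at 6 h, and to 0.12 and 0.24 at 36 h. The share of called genes that were higher in WSS then became 88.9% and 82.2% at 6 h, and 66.9% and 87.1% at 36 h, against 53.1%, 51.2%, 46.6% and 49.7% after quantile normalization. Scaling over the detected probes alone gave 63.1%, 56.9%, 44% and 42.8%. Changes below are relative to the quantile-normalized median of all genes, which was 0.01 to 0.04 in these comparisons and -0.02 to 0.03 in the others. Markers of the AGM mixture were present: 8 of 9 endothelial, 8 of 9 mesenchymal, 7 of 8 erythroid, 7 of 11 macrophage and 5 of 9 blood stem and progenitor markers passed the filter. The WSS indomethacin 6 h array 2 stood apart in its erythroid sum, the summed normalized intensity of those markers, at 7749 against 74647 and 82745 on the other arrays of its group.

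WSS changed 3 of the 9 tested members at 6 h in both drug states: Pde4b fell, and Prkaca and Crem rose. Over all genes, 17.8% were called with indomethacin (9.45% higher, 8.34% lower) and 29.4% with vehicle (15.1% higher, 14.3% lower), so 3 of 9 stands near the background with vehicle. With indomethacin at 36 h limma called no member, where 10.8% of all genes were called (5.05% higher, 5.78% lower) and 2 members had an unadjusted p under 0.05. With vehicle at 36 h, Prkar1a rose and Crebbp fell, against 9.38% of all genes called (4.66% higher, 4.72% lower). Marker genes of other cells moved too. At 6 h the macrophage markers Adgre1, Cd14 and Lyz2, 3 of 7 tested, rose in both drug states, and the macrophage sum was 373 to 583 with indomethacin and 459 to 806 with vehicle under WSS, against 248 to 349 and 292 to 362 in static cells. Fcgr1, Mrc1 and Itgam did not pass the filter, and no probe carried the listed name Emr1. Of 8 mesenchymal markers, 3 fell at 6 h with vehicle, with sums of 2983 to 3280 under WSS against 3742 to 4087 in static cells. With indomethacin at 6 h limma called none of the 8, of which 2 had an unadjusted p under 0.05, with sums of 2909 to 3154 under WSS against 2666 to 3671 in static cells. At 36 h the mesenchymal sum was 5163 to 6289 with indomethacin and 4585 to 6835 with vehicle under WSS, against 7426 to 9789 and 9024 to 9308 in static cells. The neural sum was 2827 to 5130 and 4375 to 5140 under WSS, against 1877 to 2577 and 1974 to 2593 in static cells. The part of these cells in the members' changes was not tested. In bulk RNA, fewer cells of a type and less RNA per cell cannot be told apart, and this holds for each change that follows.

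**Figure D1:**
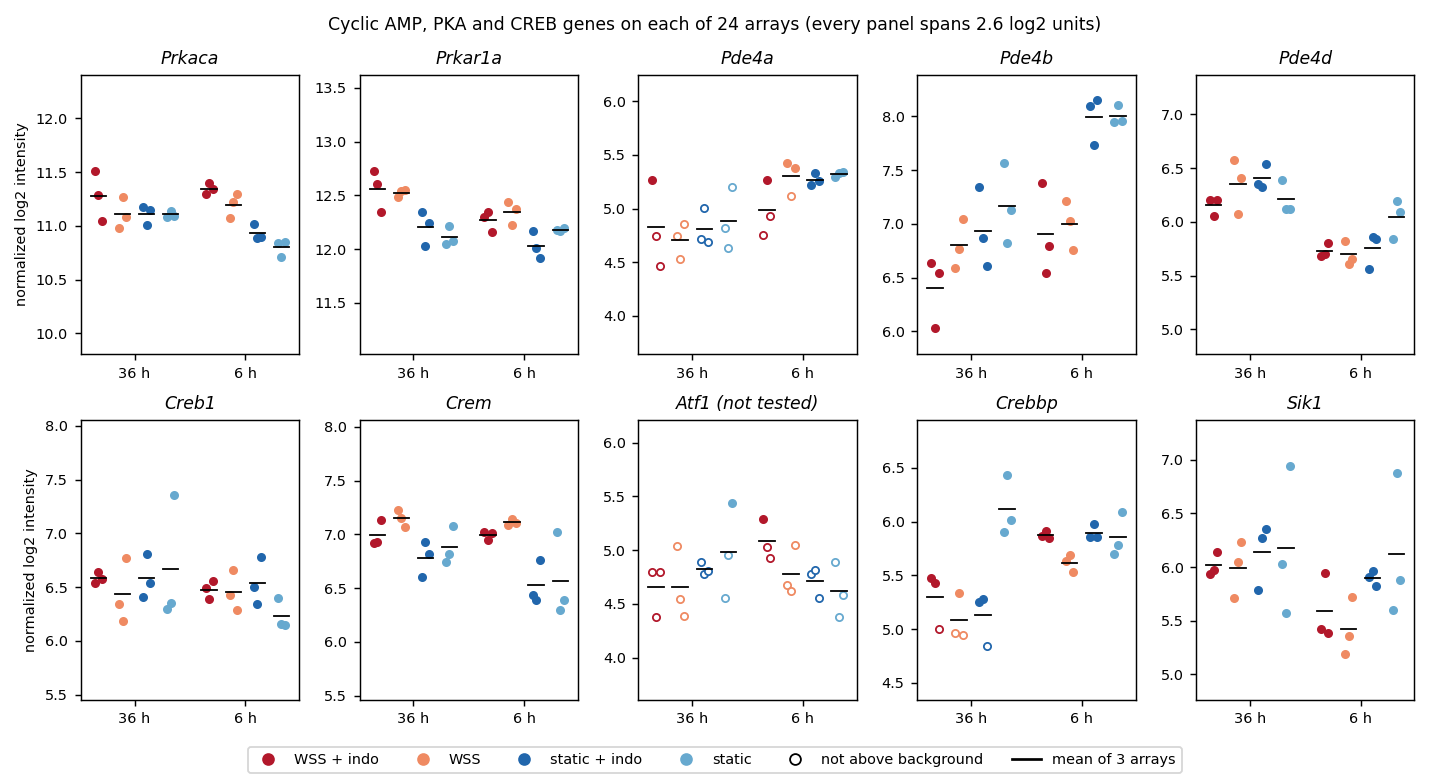
Normalized log2 intensity of the brightest probe of each gene on each of the 24 arrays, with the 36 h groups left of the 6 h groups, coloured by flow and drug, bars at the mean of 3 arrays and open points for arrays not above background. Pde4b stood at 7.74 or above on all 6 static 6 h arrays and at 7.56 or below on the other 18.

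Prkaca encodes the main catalytic subunit of PKA, and its brightest probe was bright on every array. At 6 h with indomethacin it read 11.3, 11.4 and 11.34 under WSS, against 11.01, 10.89 and 10.89 in static cells. With vehicle at 6 h it read 11.08, 11.22 and 11.29 under WSS, against 10.84, 10.71 and 10.85 in static cells. The groups did not overlap in either drug state, as was the case for 40.2% and 45.9% of all genes. The rise was 0.41 ± 0.12 with indomethacin (1.33-fold, adjusted p = 0.018) and 0.4 ± 0.12 with vehicle (1.32-fold, adjusted p = 0.014). The second Prkaca probe moved the same way, by 0.31 ± 0.12 (adjusted p = 0.086 over all probes) and 0.5 ± 0.12 (adjusted p = 0.0036). By 36 h the difference was 0.17 with indomethacin (95% interval -0.08 to 0.41) and 0 with vehicle (-0.24 to 0.25). The difference between the 36 h and 6 h effects in vehicle, tested as an interaction, was -0.39 ± 0.17 and did not pass (adjusted p = 0.12). Both 6 h calls were lost without some single arrays: with indomethacin without static array 2, WSS array 2 or WSS array 3 (adjusted p up to 0.071), and with vehicle without static array 2 or WSS array 3 (up to 0.061).

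Prkar1a encodes the regulatory subunit RI-alpha, which holds the catalytic subunit inactive until cyclic AMP binds, and has 1 probe on the array. At 36 h with vehicle it read 12.48, 12.54 and 12.54 under WSS, against 12.04, 12.22 and 12.07 in static cells. With indomethacin at 36 h it read 12.73, 12.6 and 12.34 under WSS, against 12.34, 12.02 and 12.24 in static cells. The groups were apart in both drug states, with indomethacin by less than the printed digits show, as for 27.9% of all genes with indomethacin and 24% with vehicle. The rise was 0.41 ± 0.12 with vehicle (1.33-fold, adjusted p = 0.031), and the difference with indomethacin was 0.36 ± 0.12 (adjusted p = 0.054). At 6 h the differences were 0.23 with indomethacin (95% interval -0.01 to 0.48) and 0.17 with vehicle (-0.08 to 0.41). These passed with arrays scaled to a common median, at 0.66 (adjusted p = 0.0037) and 0.55 (0.013) over all probes and 0.41 (0.019) and 0.32 (0.048) over detected probes, and with array weights for indomethacin (0.24, 0.025). The vehicle call at 36 h was lost without any of 5 of its 6 arrays (adjusted p up to 0.11), every one but static array 2. No other probe checks these values.

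Pde4b encodes a cyclic AMP phosphodiesterase and had the widest range of group means among the members, 1.6 log2 units. At 6 h with indomethacin it read 7.38, 6.54 and 6.8 under WSS, against 8.1, 7.74 and 8.15 in static cells. With vehicle at 6 h it read 7.21, 7.02 and 6.76 under WSS, against 7.95, 8.11 and 7.95 in static cells. Every static array at 6 h lay above every WSS array in both drug states. Pde4b fell by 1.09 ± 0.23 with indomethacin (2.13-fold lower, adjusted p = 0.0026) and by 1.01 ± 0.23 with vehicle (2.01-fold lower, adjusted p = 0.0024). The flow effect with indomethacin minus that with vehicle was -0.08 ± 0.32 (95% interval -0.76 to 0.59). By 36 h the differences were -0.53 with indomethacin (95% interval -1.01 to -0.06, adjusted p = 0.14) and -0.37 with vehicle (-0.85 to 0.1, adjusted p = 0.34), and the arrays overlapped. The 36 h effect minus the 6 h effect in vehicle was 0.63 ± 0.32 (adjusted p = 0.2). Without the WSS indomethacin array 2 that stood apart in erythroid markers, the fall with indomethacin at 6 h was -0.91 (adjusted p = 0.024).

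The Pde4b value rests on 1 probe, which the platform lists for a cDNA clone. The other 3 probes did not pass the filter, and the probe for the RefSeq transcript was above background on 4 of 24 arrays. All 3 had the sign of the bright probe in WSS against static at 6 h, at -0.09 to -0.02 with indomethacin and -0.21 to -0.11 with vehicle, but far closer to 0. Which transcripts the bright probe reads was not tested. The order of its levels ran from 8 in both static 6 h groups (SD 0.23 with indomethacin and 0.09 with vehicle) over 7.17 in static vehicle cells at 36 h to 6.4 ± 0.33 in WSS indomethacin cells at 36 h. Only the step below the static 6 h groups separated neighbouring groups, and the other neighbours overlapped array by array.

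Pde4a and Pde4d encode further cyclic AMP phosphodiesterases of the same family, and neither was called for flow at either time. Pde4a was dim, above background on 10 of 24 arrays. The other Pde4d probe was above background on no array, so Pde4d rests on 1 probe. Pde4d read 5.82, 5.61 and 5.66 under WSS with vehicle at 6 h, against 5.84, 6.2 and 6.09 in static cells. These groups did not overlap, but the difference of -0.35 ± 0.14 had an adjusted p of 0.06. With indomethacin at 6 h the Pde4d difference was -0.02 (95% interval -0.31 to 0.26). Among the other phosphodiesterases, 4 of 13 listed genes were tested. With vehicle at 6 h, Pde1b, a calmodulin-stimulated enzyme, fell by 0.63 ± 0.16 and Pde10a by 0.47 ± 0.16 under WSS (adjusted p = 0.0069 and 0.033). Of all genes, 14.3% were called lower there. The median of those 4 was -0.31, against 0.01 for all genes, and with indomethacin limma called none of the 4, of which 1 had an unadjusted p under 0.05.

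**Figure D2:**
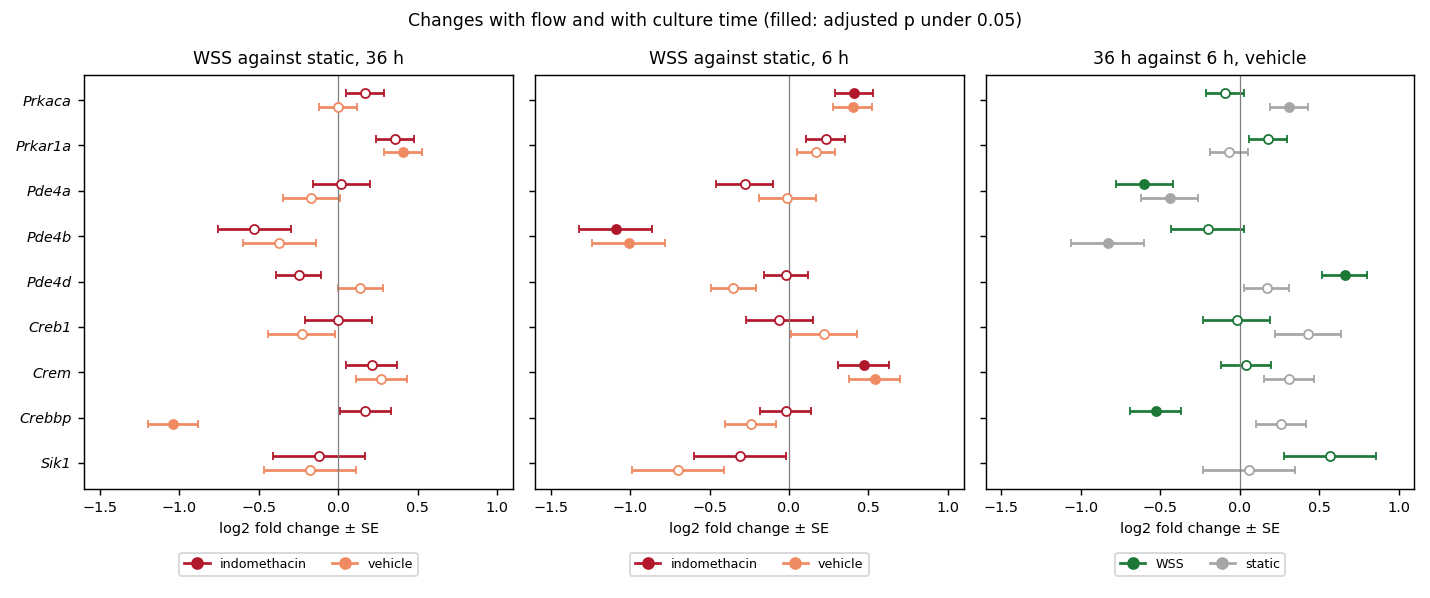
Log2 fold change with its standard error for the 9 tested genes, WSS against static at 36 h and at 6 h in each drug state and 36 h against 6 h in vehicle in each flow state, filled where the adjusted p was under 0.05. Pde4b, Prkaca and Crem are filled at 6 h in both drug states, and Crebbp and Prkar1a at 36 h in vehicle only.

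Crem encodes activators and, from an internal promoter, the repressor ICER, which cyclic AMP itself induces. At 6 h with indomethacin its brightest probe read 7.03, 6.94 and 7.01 under WSS, against 6.43, 6.39 and 6.76 in static cells. With vehicle at 6 h it read 7.09, 7.15 and 7.1 under WSS, against 7.02, 6.29 and 6.39 in static cells. The WSS arrays lay close together, with an SD of 0.04 with indomethacin and 0.03 with vehicle, and above every static array, of which vehicle array 1 came nearest. The rise was 0.47 ± 0.16 with indomethacin (1.38-fold, adjusted p = 0.042) and 0.54 ± 0.16 with vehicle (1.46-fold, adjusted p = 0.012). The other 3 detected Crem probes had the same sign at 6 h, at 0.17 to 0.64 with indomethacin and 0.21 to 0.35 with vehicle. The dimmest of them was above background on all 3 arrays only in the WSS indomethacin 6 h group. It was kept through that level, so nothing is read from its sign at 6 h. The remaining ones gave 0.6 and 0.64 with indomethacin, and 0.32 and 0.21 with vehicle. For 36 h the differences were 0.21 with indomethacin (95% interval -0.11 to 0.53) and 0.27 with vehicle (-0.05 to 0.59). The vehicle difference passed in limma with arrays scaled to a common median over all probes (adjusted p = 0.038). One of the other probes did pass at 36 h with vehicle, at 0.73 ± 0.19 (adjusted p = 0.022 over all probes), while the dimmest detected probe stood at -0.33. The indomethacin call at 6 h was lost without any of 5 of its 6 arrays (adjusted p up to 0.15), and the vehicle call without static array 2 or 3 (up to 0.078). The indomethacin call was also lost with no background correction, median scaling over detected probes, no filter on dim probes or a trended and robust fit. The vehicle call was also lost when only the arrays compared were fitted. Whether the probes separate Crem activators from ICER is not given in the tables used here.

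Creb1, the founding member of the CREB family, was above background on all 24 arrays and was called in none of the 13 comparisons. Its flow differences ran from -0.23 to 0.22. In static vehicle cells at 36 h it read 6.29, 6.35 and 7.36, and the high array 3 set the SD of 0.6 there, against 0.06 to 0.3 in the other 7 groups. The other detected Creb1 probe, above background on 18 of 24 arrays, was not called either. For flow it gave 0.15 with indomethacin and 0.23 with vehicle at 6 h, where the brightest gave -0.06 and 0.22. At 36 h it gave 0.1 and 0.16, where the brightest gave 0 and -0.23. The remaining Creb1 probes did not pass the filter. Atf1, a close relative that pairs with Creb1, read 4.38 to 5.44 over all arrays and had no test. Its arrays above background were the highest of WSS indomethacin at 6 h, at 5.29, and of static vehicle at 36 h, at 5.44.

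Crebbp encodes CBP, the acetyltransferase that binds phosphorylated CREB, and its probes were dim. At 36 h with vehicle the brightest read 4.97, 5.34 and 4.95 under WSS, of which 1 array was above background, against 5.91, 6.44 and 6.01 in static cells, all above background. The groups did not overlap, and the fitted fall was 1.04 ± 0.16 (adjusted p = 3e-04), a value that ran from -1.54 to -0.49 over the alternatives and rests on WSS levels mostly not above background. With indomethacin at 36 h it read 5.48, 5.43 and 5 under WSS, against 5.25, 5.28 and 4.85 in static cells, with 2 arrays above background in each group and a difference of 0.17 (95% interval -0.16 to 0.51). The static vehicle 36 h group thus stood alone above the other 3 groups of its time. The flow effect at 36 h with indomethacin minus that with vehicle was 1.21 ± 0.23, with an unadjusted p of 2.8e-05 and an adjusted p of 0.17, where 0% of all genes were called. The flow effect at 36 h minus that at 6 h in vehicle was -0.8 ± 0.23 (adjusted p = 0.027), the only member called there, with 11.8% of all genes called (6.33% higher, 5.42% lower).

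The second detected Crebbp probe did not show these changes in the same size. It gave -0.3 ± 0.17 for WSS against static with vehicle at 36 h (adjusted p = 0.33 over all probes), and 0.01 ± 0.25 for the difference between the 36 h and 6 h flow effects, of opposite sign. For the flow effect at 36 h with indomethacin minus that with vehicle it gave 0.83 ± 0.25 (adjusted p = 0.83 over all probes). The remaining Crebbp probe was above background on no array. The brightest probe's call at 36 h with vehicle held without each of the 6 arrays in turn, from -1.16 to -0.88, but not when the 6 arrays were fitted alone (adjusted p = 0.054). The call on the difference between times was lost without any of 7 of its 12 arrays. The probes of this gene therefore disagree in size, and the pattern is a value of 1 probe near background.

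**Figure D3:**
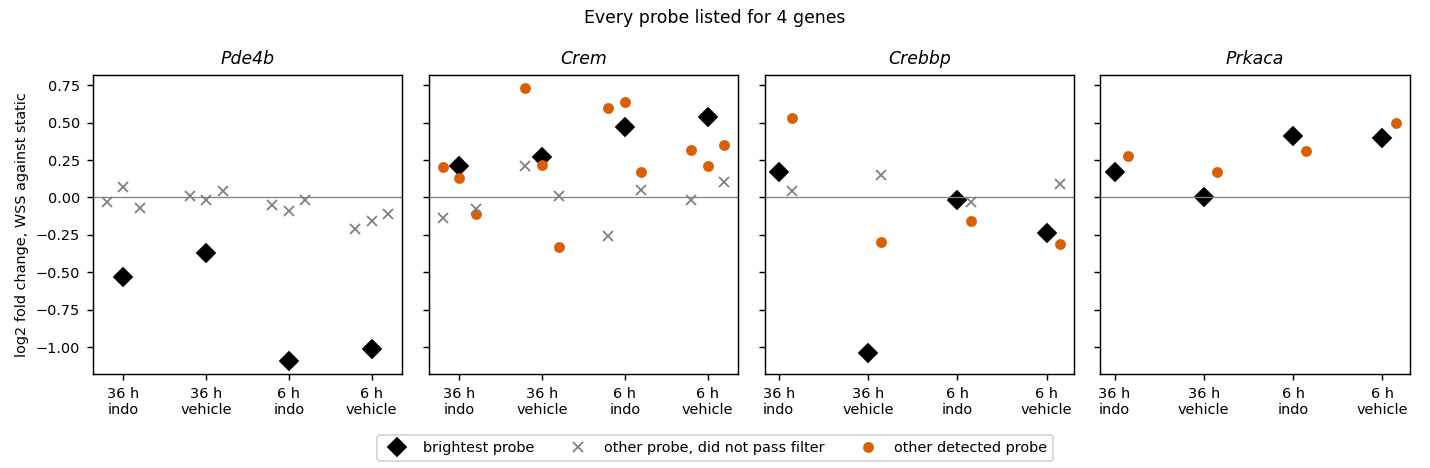
Log2 fold change of WSS against static for every probe listed for Pde4b, Crem, Crebbp and Prkaca, in each drug state at 36 h and 6 h, with diamonds for the brightest probe, circles for other detected probes and crosses for probes that did not pass the filter. At 6 h the detected probes of Crem and Prkaca lie on 1 side of 0, while the Pde4b result rests on its brightest probe. The dimmest detected Crem probe passed the filter only through the WSS indomethacin 6 h group.

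Sik1 encodes a salt-inducible kinase that is itself a cyclic AMP target and restrains CRTC coactivators. It read 5.19, 5.35 and 5.72 under WSS with vehicle at 6 h, against 5.6, 6.88 and 5.88 in static cells. The groups overlapped, static array 2 stood high, and the difference of -0.7 ± 0.29 did not pass (adjusted p = 0.08). At 36 h the differences were -0.12 with indomethacin (95% interval -0.73 to 0.49) and -0.18 with vehicle (-0.8 to 0.43). Sik1 had the largest spread within groups of the tested members, with an SD of 0.69 in static vehicle cells at 36 h and 0.67 at 6 h.

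Indomethacin changed 1 member result of 36, over both flow states and both times. Crebbp fell in static cells at 36 h, to 5.25, 5.28 and 4.85 with indomethacin against 5.91, 6.44 and 6.01 with vehicle. The groups did not overlap, as for 8.28% of all genes, and the fall was 0.99 ± 0.16 (adjusted p = 0.019). In this comparison 0.0491% of all genes, 6 in number, were called (0.0164% higher, 0.0327% lower). It shares the static vehicle 36 h arrays with the flow result for this gene, so the pair are not separate evidence. Its second probe gave -0.6 ± 0.17 (adjusted p = 0.53 over all probes), and the call was lost without static vehicle array 2 or without static indomethacin array 2 or 3 (adjusted p up to 0.11). Without Crebbp, the drug differences of the members ran from -0.4 to 0.31. In WSS cells limma called no member at 36 h or at 6 h, none had an unadjusted p under 0.05, and 0.00818% and 0% of all genes were called. The drug groups of members did not overlap for 0 of 9 in WSS cells at 36 h (8.69% of all genes), 3 of 9 in WSS cells at 6 h (Crem, Crebbp and Prkaca, against 10.6% of all genes) and 2 of 9 in static cells at 6 h (Prkaca and Prkar1a, against 13.4%), with differences of -0.15 to 0.26. In static cells at 6 h, 1 member, Pde4d, had an unadjusted p under 0.05 (-0.29 ± 0.14, adjusted p = 0.75), with 0% of all genes called.

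The drug did not detectably alter the response of the members to flow. Of 18 tests of the flow effect with indomethacin minus that with vehicle, 9 at each time, limma called 0, and 1, the Crebbp value given above, had an unadjusted p under 0.05. For Prkaca and Crem at 6 h these differences were 0.02 (95% interval -0.33 to 0.36) and -0.08 (-0.53 to 0.38). Such intervals still allow a change of about the size of the flow effects of both genes.

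For culture time in vehicle 3 of 9 tested members were called in each flow state, Pde4a among them, against 35.8% of all genes called under WSS (18% higher, 17.7% lower) and 51% in static cells (26% higher, 25% lower). Erythroid markers moved with time: 7 of 7 tested fell under WSS, with sums of 8388 to 15884 at 36 h against 67284 to 85361 at 6 h, and 6 of 7 fell in static cells, with sums of 9634 to 34157 at 36 h against 50120 to 84377 at 6 h. Mesenchymal markers were higher at 36 h in 4 of 8 tested under WSS, with sums of 4585 to 6835 against 2983 to 3280 at 6 h, and in 7 of 8 in static cells, with sums of 9024 to 9308 against 3742 to 4087. Macrophage markers were higher in 2 of 7 under WSS and 4 of 7 in static cells, smooth muscle markers in 1 and 2 of 3, and urogenital markers lower in 2 and 3 of 4. The part of these cells in the members' changes was not tested. Pde4b in static cells fell to 7.56, 6.82 and 7.13 at 36 h, against 7.95, 8.11 and 7.95 at 6 h, a change of -0.83 ± 0.23 (1.78-fold lower, adjusted p = 0.0046). Those groups did not overlap, as for 56.9% of all genes, and under WSS the difference was -0.2 (95% interval -0.67 to 0.28). Pde4d under WSS rose to 6.58, 6.07 and 6.41 at 36 h, against 5.82, 5.61 and 5.66 at 6 h, a change of 0.66 ± 0.14 (1.58-fold, adjusted p = 0.00083), with groups apart as for 44.7% of all genes. In static cells the Pde4d difference was 0.17 (95% interval -0.12 to 0.45), and the difference between the flow states did not pass (0.49 ± 0.19, adjusted p = 0.099).

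Pde4a, counted among the 3 in both flow states, read 4.74, 4.53 and 4.85 under WSS at 36 h, against 5.42, 5.12 and 5.38 at 6 h, and 4.81, 4.63 and 5.2 in static cells at 36 h, against 5.3, 5.33 and 5.34 at 6 h. Its probe was above background on no 36 h vehicle array, on 2 of 3 WSS arrays and on 3 of 3 static arrays at 6 h, so only bounds can be given: at least 1.14-fold lower under WSS and at least 1.07-fold lower in static cells. The probe was kept through its static 6 h level, so nothing is read from these calls. The static call was lost under 7 of 11 alternatives, and without any of 5 of its 6 arrays. Prkaca in static cells rose to 11.08, 11.14 and 11.09 at 36 h, against 10.84, 10.71 and 10.85 at 6 h, by 0.31 ± 0.12 (adjusted p = 0.034). Its second probe rose by 0.6 ± 0.12 (adjusted p = 0.00036 over all probes), but the call on the brightest was lost without any 1 of the 6 arrays (adjusted p up to 0.11). Crebbp under WSS fell to 4.97, 5.34 and 4.95 at 36 h, against 5.63, 5.69 and 5.53 at 6 h, by 0.53 ± 0.16 (adjusted p = 0.013). Its second probe fell by 0.6 ± 0.17 there (adjusted p = 0.012), and also in static cells (-0.6 ± 0.17, adjusted p = 0.0066), where the brightest gave 0.26 ± 0.16. That second probe was above background on all 3 arrays only in 6 h groups. At 36 h with vehicle it was above background on 1 WSS array and 2 static arrays. It was kept through its 6 h levels, so nothing is read from its falls.

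Of the 16 member results called over the 13 comparisons, 9 had another detected probe, and in 8 of these every other detected probe had the same sign. This tally holds probes kept only through the side on which they are high. They are the dimmest Crem probe at 6 h and the second Crebbp probe in 36 h against 6 h. The tally is therefore a description only. The genes whose 8 group means were most like those of the 4 widest-ranging members, by Pearson correlation, were Khnyn (0.989), A930027G11Rik (0.989) and 1810026B05Rik (0.988) for Pde4b, and 9330133O14Rik (0.961), Zfp385b (0.961) and Fam110a (0.941) for Crebbp. For Sik1 they were Ap2a2 (0.985), 1110046J11Rik (0.984) and Sorl1 (0.979), and for Pde4d Gas2 (0.974), Sec31a (0.973) and Glrx3 (0.972). These likenesses are picked from 12226 genes over 8 points that share arrays, and are descriptions only.

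Upstream of PKA, the listed receptors coupled to Gs were mostly below detection. Only Pth1r, the parathyroid hormone receptor, of 16 was tested, and Ptger2 and Ptger4, the EP2 and EP4 receptors, did not pass the filter. Pth1r fell by 0.53 ± 0.13 under WSS with indomethacin at 36 h (adjusted p = 0.013). Of 7 adenylyl cyclases tested of 10 listed, limma called none for flow in any of the 4 comparisons, with 1 at an unadjusted p under 0.05 in each drug state at 36 h and 0 at 6 h. Of 6 tested G protein subunits, Gnao1, which encodes the inhibitory Go-alpha of neurons, rose at 36 h by 0.73 ± 0.2 with indomethacin and 0.92 ± 0.2 with vehicle (adjusted p = 0.023 and 0.0062). At 36 h Gnaz, another inhibitory alpha subunit, rose with indomethacin by 0.67 ± 0.21 (adjusted p = 0.04), and Gnai1 fell with vehicle by 0.51 ± 0.16 (adjusted p = 0.048). Gnal fell by 0.52 ± 0.19 with vehicle at 6 h (adjusted p = 0.042). Gnas, the Gs-alpha subunit, stood at -0.07 ± 0.17 with vehicle at 6 h.

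Other PKA partners gave few changes. Of 6 tested PKA subunits and inhibitors outside the members, Pkia, an inhibitor of the catalytic subunit, rose by 0.42 ± 0.14 with indomethacin at 6 h (adjusted p = 0.041), and limma called none with vehicle at either time, where 0 had an unadjusted p under 0.05. Of 9 tested A-kinase anchoring proteins, which tether PKA to its sites, 3 fell with vehicle at 6 h and 2 of these, Akap7 (-0.67 ± 0.14) and Akap8l (-0.49 ± 0.16), with indomethacin. Over all genes, 14.3% were called lower with vehicle at 6 h and 8.34% with indomethacin. At 36 h Akap6 and Akap9 rose and Akap7 fell in both drug states. There 5.05% of all genes were called higher with indomethacin and 4.66% with vehicle, and 5.78% and 4.72% lower. Akap6, an anchor of muscle and neurons, rose by 0.97 ± 0.21 with indomethacin and 0.92 ± 0.21 with vehicle. Akap9, a centrosome and Golgi scaffold, rose by 0.82 ± 0.13 and 0.59 ± 0.13, and its flow effect at 36 h minus that at 6 h was 1.06 ± 0.18 (adjusted p = 0.0016). Neural markers moved with Gnao1 and Akap6 at 36 h, where 3 of 5 tested rose and 1 fell in each drug state, and their part in these changes was not tested. Of the cyclic AMP sensors outside PKA, Popdc3, a Popeye protein, rose at 6 h by 0.77 ± 0.15 with indomethacin and 0.49 ± 0.15 with vehicle (adjusted p = 0.0014 and 0.017). At 36 h Popdc3 fell under WSS with indomethacin by 0.7 ± 0.15 (adjusted p = 0.0044), with vehicle it stood at -0.36 ± 0.15 (adjusted p = 0.15), and the medians of the 4 sensors were -0.32 and -0.37, against 0.52 and 0.48 at 6 h.

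Around CREB, 3 of 8 tested coactivators and kinases fell at 6 h, the same 3 in both drug states. Of all genes, 8.34% were called lower with indomethacin and 14.3% with vehicle. Sik3, a salt-inducible kinase, fell by 1.07 ± 0.33 with indomethacin and by 1.34 ± 0.33 with vehicle (adjusted p = 0.027 and 0.0041). Creb5, a CREB-related factor, fell by 0.62 ± 0.2 and by 0.69 ± 0.2, and Ep300, which encodes p300, the partner of CBP, by 0.47 ± 0.14 and by 0.54 ± 0.14. The list's median was -0.07 with indomethacin and -0.17 with vehicle, against 0.04 and 0.01 for all genes. With vehicle at 36 h Camk4, a calcium-dependent CREB kinase, rose by 0.58 ± 0.14 (adjusted p = 0.012).

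Of the genes known as cyclic AMP targets, 18 of 23 listed were tested, and under WSS at 6 h 7 fell with indomethacin and 8 with vehicle, 7 of them in both. None was called higher, and 11 with indomethacin and 10 with vehicle were not called. Over all genes, 8.34% were called lower with indomethacin and 14.3% with vehicle. The median of the 18 was -0.49 with indomethacin and -0.58 with vehicle, against 0.04 and 0.01 for all genes. Stc1, which encodes the secreted hormone stanniocalcin-1, fell by 2.35 ± 0.21 and by 2.52 ± 0.21 (adjusted p = 2.4e-07 and 5.5e-08). The growth-response factors Fos and Egr1 fell by 1.23 ± 0.32 and by 0.77 ± 0.25 with indomethacin, and by 1.42 ± 0.32 and by 1.17 ± 0.25 with vehicle. Atf3, a stress factor, fell by 0.98 ± 0.25 with indomethacin and by 0.69 ± 0.25 with vehicle. Irs2, an insulin receptor substrate, fell by 0.85 ± 0.24 and by 0.98 ± 0.24, and Cebpb by 0.82 ± 0.22 and by 1.12 ± 0.22. With arrays scaled to a common median over all probes, 1 target was called lower with indomethacin and 5 with vehicle, and with array weights 11 and 12 were. Without single arrays 3 to 6 and 6 to 7 were called lower. These genes also answer to serum, stress and calcium signals, which the list cannot separate. The part of macrophage and mesenchymal cells, whose markers moved under WSS at 6 h as given above, in the lower target levels was not tested.

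**Figure D4:**
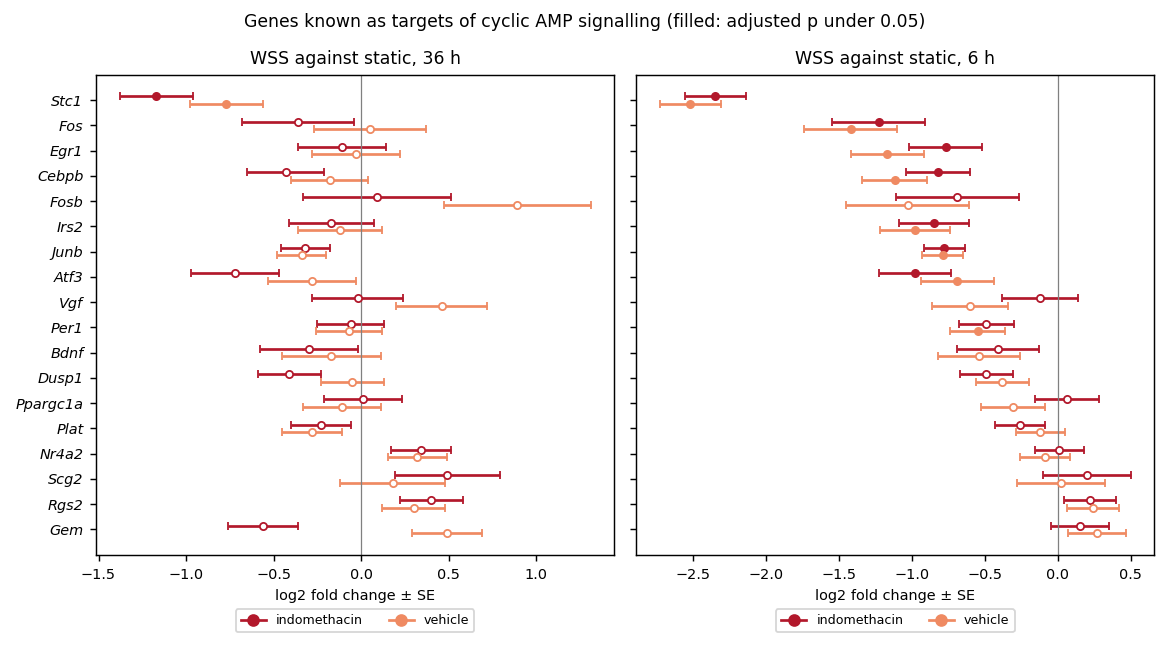
Log2 fold change with its standard error, WSS against static, for 18 genes known as cyclic AMP targets at 36 h and 6 h in each drug state, filled where the adjusted p was under 0.05. At 6 h 7 genes are filled with indomethacin and 8 with vehicle, all below 0, while at 36 h only Stc1 is filled.

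At 36 h Stc1 was the only target called, lower by 1.17 ± 0.21 with indomethacin and by 0.77 ± 0.21 with vehicle (adjusted p = 0.00099 and 0.025), and 6 of 18 targets with indomethacin and 4 with vehicle had an unadjusted p under 0.05. The medians of the list were -0.2 with indomethacin and -0.06 with vehicle, against 0.02 and 0.03 for all genes. The flow effect at 36 h minus that at 6 h in vehicle was positive and passed for Fosb (1.92 ± 0.59), Stc1 (1.76 ± 0.3), Fos (1.47 ± 0.45) and Egr1 (1.15 ± 0.35), with none in the other direction, against 6.33% of all genes called higher. For indomethacin against vehicle limma called none of the 18 in either flow state, with an unadjusted p under 0.05 for 2 of them at 36 h and 1 at 6 h in each flow state.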

How the data were processed

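Total RNA of 24 samples, 8 groups of 3, was measured on Illumina bead arrays. The deposited table holds, per the file headers, the probe signal of each array as linear intensity, not normalized between arrays, and a detection p-value per probe against negative control beads. The exporting software was not given in the labels and headers used here. Another deposited table of processed intensity, whose linear values run below 0 and are alike in distribution on all arrays, served as an alternative, and how the authors made it was not given in those sources. Probe symbols came from the platform annotation: 35784 of 45281 probes had 1 symbol, 9497 had none, and 937 symbols were updated through RefSeq.

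From the deposited intensity, log2 values were computed with neqc of limma 3.58.1 in R 4.3.3, that is, normexp background correction whose negative controls are derived from each array's detection p-values, then an offset of 16 and quantile normalization. A probe was kept where some group had a detection p under 0.05 on each of its 3 arrays (21251 probes), and each gene was read from its brightest kept probe. Group means were fitted with lmFit and eBayes over all 24 arrays (21.4 degrees of freedom), 13 comparisons were tested, and p-values were adjusted over 12226 genes within each comparison. A fold bounded by background is given as "at least", against the higher of each array's lowest detected signal and the probe's own. The number of arrays, 3 per group, limits the precision.

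The text names all members, up to 4 passing genes of each pathway list per comparison by size of change, genes whose role had to be stated beside a member, and for the 4 members of widest range the 3 genes of most alike group means. The members, lists and comparisons were chosen with earlier results of these data known. The results were recomputed from the processed values, with median scaling, with background left in, with an offset of 50, with the filter removed or set at 0.01, with every detected probe kept, with array weights, with a trended and robust fit, with a replicate block, with a fit of the compared arrays alone, and without each array in turn. Median scaling over the detected probes was added after seeing the data.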

Additional observations from a re-analysis of the deposited data

Results flagged for a closer look

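The flow effect on Crebbp differed between the times. In vehicle, WSS against static was -1.04 at 36 h and -0.24 at 6 h, and the difference between these effects was -0.8 ± 0.23 by the interaction term in limma (adjusted p = 0.027 over 12226 genes). The second detected Crebbp probe gave 0.01 ± 0.25 for the same difference. The brightest probe was above background on 1 of 3 WSS arrays and 3 of 3 static arrays at 36 h, and on all arrays at 6 h.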

How the results depend on the processing

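Of the 16 member results called, 4 kept their call under every alternative and without each array: Pde4b in WSS against static at 6 h with indomethacin and with vehicle and in 36 h against 6 h in static cells, and Pde4d in 36 h against 6 h under WSS. Each of these 4 rests on 1 detected probe, and the alternatives reused that probe, so they cannot check it. None of the 117 member results reversed in a called direction, and 12 of the 101 not called passed under some alternative. Members called in WSS against static with vehicle at 6 h numbered 3, and 7 with median scaling over detected probes, and 1 to 5 without single arrays. Crem was lost there with only the arrays compared, while Prkar1a was gained with both median scalings and Pde4d with processed values and array weights. With vehicle at 36 h, where median scaling over all probes added Crem, the count was 2. It was 1 with median scaling over detected probes, 0 with only the arrays compared, and 1 to 2 without single arrays. With indomethacin at 6 h it was 3, and 2 to 4 over the alternatives: Crem was lost with no background correction, median scaling over detected probes, no filter or a trended and robust fit, while Prkar1a was gained with both median scalings and array weights and Pde4a with median scaling over detected probes. It was 1 to 3 without single arrays. With indomethacin at 36 h it was 0, and 1 (Prkar1a) with no background correction, an offset of 50, a detection p under 0.01 or a trended and robust fit, and 0 to 1 without single arrays. For indomethacin against vehicle in static cells at 36 h it was 1, and 0 with median scaling, no background correction, an offset of 50, a trended and robust fit or only the arrays compared, and 0 to 1 without single arrays. For the change of the flow effect with time it was 1, and 0 with no background correction, median scaling or only the arrays compared, 3 with median scaling over detected probes, and 0 to 2 without single arrays. For 36 h against 6 h it was 3 under WSS, and 2 to 3 without single arrays, and 3 in static cells, where it was 1 with only the arrays compared and 1 to 2 without single arrays. The cause of these moves was not tested, beyond the fewer arrays of some fits.

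Counts over all genes that moved by more than 1.5 times were, for WSS against static with indomethacin, 2175 at 6 h (1835 to 4881 over the alternatives) and 1325 at 36 h (710 to 1892), with vehicle 3593 at 6 h (3262 to 6509) and 1147 at 36 h (123 to 2065), and for the change of the flow effect with time 1437 (680 to 2947). For 36 h against 6 h they were 4372 under WSS (3436 to 6883) and 6231 in static cells (5393 to 10620). The alternative with every detected probe kept counted over 21251 probes and not 12226 genes, so its counts are in another unit. It alone moved the counts for 36 h against 6 h in both flow states and for WSS against static with vehicle at 6 h. For indomethacin against vehicle the counts were at most 8 in each comparison, apart from 95 with array weights in static cells at 6 h. For the change of the flow effect with the drug the count was 0, and at most 3 over the alternatives.

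The replicate number as a block left the members called at 3 in WSS against static at 6 h in both drug states, and changed 1 call: Pde4a in 36 h against 6 h in static cells (adjusted p = 0.055, 2 members called). Samples of the same number correlated at -0.23 to 0.36 over 30 pairs, 16 of them over 0.1, with all 3 pairs over 0.1 in 3 of 10 comparisons, so the numbers were not taken to pair the samples. Signal over background limits the values of Crebbp and Pde4a, whose brightest probes were not above background on all arrays.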

Other observations

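Around the members, culture time differences of the cyclic AMP sensors outside PKA and of the targets were not described above. In static vehicle cells, 4 of 4 tested sensors were higher at 36 h than at 6 h, against 26% of all genes called higher: Popdc3 (1.33), Bves (0.98) and Popdc2 (0.81), which encode the Popeye proteins of striated muscle, and Rapgef3 (0.67), which encodes EPAC1. In the same comparison 2 of 3 smooth muscle markers (median 1.27), 7 of 8 mesenchymal markers (median 1.37) and 4 of 7 macrophage markers were higher, and their part in the sensors' change was not tested. Under WSS 1 of these 4 was called, Popdc3 (0.48), against 18% of all genes, and the change of the flow effect with time passed for Popdc3 (-0.85 ± 0.21, adjusted p = 0.015). The PKA inhibitor Pkia rose with time by 1.23 under WSS and by 1.3 in static cells, and the regulatory subunit Prkar1b by 1.12 and by 1.07.

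Of the 18 tested targets, 7 were higher at 36 h than at 6 h under WSS and 2 lower, against 18% and 17.7% of all genes. In static cells 3 were higher and 3 lower, against 26% and 25% of all genes. Fosb rose by 2.94 under WSS and by 1.02 in static cells. Irs2 fell by 0.99 under WSS and by 1.84 in static cells, and Stc1 fell by 1.34 in static cells. Over the same time erythroid markers fell, mesenchymal markers rose in 4 of 8 under WSS and 7 of 8 in static cells, macrophage markers rose in 2 and 4 of 7, and urogenital markers fell in 2 and 3 of 4. The part of these cells in the targets' changes was not tested.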
